A study of Mus musculus with 8 samples.

Results

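Gas5 and the small nucleolar RNA host genes Snhg1, Snhg3, Snhg5, Snhg6, Snhg8 and Snhg12 were followed across sorted mouse satellite cells, the resident stem cells of skeletal muscle. These 7 noncoding genes were taken by symbol from a table of 24328 gene symbols. RNA was sequenced in 8 libraries, 2 per group, from C57BL/6 mice labelled as 2 months old. The sort took Vcam-positive cells and left out endothelial (CD31), blood (CD45) and Sca-1 positive cells. PFA-perfused cells came from Pax7-nGFP mice, whose satellite cells carry a nuclear green reporter, perfused with the fixative paraformaldehyde (PFA). Mice of the same reporter perfused with buffer alone gave the PBS-perfused cells. Unperfused cells came from wild-type mice without perfusion, and injury-activated cells came from wild-type mice 2.5 days after muscle injury. RNA of fixed cells was isolated with a kit for fixed tissue and RNA of unfixed cells with another kit, so fixation and kit cannot be told apart. Genotype and perfusion also changed together between the perfused and the other 2 groups and cannot be told apart.

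Small nucleolar RNAs (snoRNAs) guide chemical modification and processing of ribosomal and other RNAs in the nucleolus. C/D box snoRNAs direct 2′-O-methylation and H/ACA box snoRNAs direct pseudouridylation. In mammals most are cut out of the introns of host genes after splicing. The spliced exons of noncoding hosts such as Gas5 carry a terminal oligopyrimidine start, which ties their translation to mTOR signalling, and are degraded by nonsense-mediated decay when they are translated. Gas5 was named for its accumulation in growth-arrested cells and its RNA is known to bind the glucocorticoid receptor. By annotation, Gas5, Snhg1, Snhg5 and Snhg6 host C/D box snoRNAs, Snhg3 and Snhg8 host H/ACA box snoRNAs, and Snhg12 hosts both classes.

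The start regions of these genes are shown because all 6 genes with an entry held TATAAA or TATATA, on either strand, in a window. These are letters of the TATA element, bound by the TATA-binding protein, and few start windows hold them. Their place and strand differed, so a shared element is not claimed. RefSeq (GRCm38.p6) gave 7 windows for 6 of the 7 genes, each cut to 60 bases before and 40 after the annotated start. The 2 motifs searched, on both strands, were TATAAA and TATATA, and the matches are in capitals.
Gas5, second start, chr1:161035106-161035205, plus strand: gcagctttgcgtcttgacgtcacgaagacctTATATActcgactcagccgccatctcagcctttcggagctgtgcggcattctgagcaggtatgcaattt
Snhg1, chr19:8723427-8723526, plus strand: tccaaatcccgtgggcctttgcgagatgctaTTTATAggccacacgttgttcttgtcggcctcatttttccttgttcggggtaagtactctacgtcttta
Snhg3, chr4:132353647-132353746, minus strand: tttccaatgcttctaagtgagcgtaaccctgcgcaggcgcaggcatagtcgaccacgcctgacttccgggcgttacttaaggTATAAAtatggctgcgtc
Snhg5, chr9:88522858-88522957, minus strand: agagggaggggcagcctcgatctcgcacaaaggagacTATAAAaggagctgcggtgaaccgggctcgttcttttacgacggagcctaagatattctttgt
Snhg8, chr3:123508297-123508396, minus strand: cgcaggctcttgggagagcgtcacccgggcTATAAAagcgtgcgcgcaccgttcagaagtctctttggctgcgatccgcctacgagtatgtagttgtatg
Snhg12, chr4:132308618-132308717, plus strand: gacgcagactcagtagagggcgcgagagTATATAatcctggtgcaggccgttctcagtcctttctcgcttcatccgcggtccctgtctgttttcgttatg
The capitals of Snhg1 are TATAAA read on the other strand. The match began 23 to 32 bases before the annotated start in Gas5, Snhg1, Snhg5, Snhg8 and Snhg12, and 23 bases after it in Snhg3. The first annotated start of Gas5 held no match. Of all 32851 windows of the same length, 6.43% held either motif, 5.05% TATAAA and 1.95% TATATA. A run of at least 5 pyrimidines that begins with C lay within 30 bases of the start in 5 of the 7 windows, against 60.1% of all windows. The longest was CCTTTCTC in Snhg12, and 18.9% of all windows held a run of at least 8. A match describes the letters in this window and is not evidence of use.

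Levels are given as FPKM, read fragments of a gene divided by its length and by the size of the library, so genes can be compared per length. All 7 genes passed the filter of 1 FPKM in at least 2 libraries that left 12515 tested symbols. Without counts in the deposited table, the depth of the libraries stays unknown. Whether the 2 libraries of a group are separate animals is not in the labels, and p-values therefore cover only the spread between libraries, which may be technical. Rn45s, the ribosomal RNA precursor, took 0.0266 to 19.4% of the summed FPKM, most in the fixed cells. Pax7, the defining factor of satellite cells, was present in every library, from 4.40 FPKM after injury to 567 in fixed cells. The 12 satellite cell markers, Pax7 among them, did not share a single order of groups. Myf5 and Sdc4 were highest in unperfused cells, Sdc4 at 28149 and 40318 FPKM there against 420 and 239 in PFA-perfused libraries. The 12 summed to 29953 and 43334 FPKM in unperfused and 4033 and 4226 in PBS-perfused libraries. The sums were 2281 and 1998 in PFA-perfused and 1465 and 1436 in injury-activated libraries. The 6 haematopoietic markers summed to 2.92 to 56.0 FPKM and Ptprc, which encodes CD45, reached at most 0.250. In bulk RNA, fewer expressing cells and less RNA per cell cannot be told apart.

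Gas5 had the highest FPKM of the 7 genes in buffer-perfused cells. Its FPKM was 96.7 and 115 in PBS-perfused libraries, 54.8 and 54.7 in PFA-perfused, 59.3 and 32.3 in unperfused and 33.1 and 28.2 in injury-activated libraries. Both PBS-perfused libraries stood above the 6 others. The range of the unperfused libraries spanned both PFA-perfused values and 1 injury-activated value. The group means ran from 105.9 ± 13.0 (PBS-perfused) through 54.7 ± 0.0805 (PFA-perfused) and 45.8 ± 19.1 (unperfused) to 30.7 ± 3.42 (injury-activated; SD, n = 2 throughout).

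As deposited, the other 3 C/D box hosts each peaked in a different group, and the peak of Snhg6 in PFA-perfused cells depended on scaling (log2 fold changes of 0.40 in unperfused and 0.22 in PBS-perfused against PFA-perfused cells, neither called, after each library was rescaled by a trimmed mean of its log ratios). Snhg5, host of Snord50a and Snord50b, was at 119.8 and 112 FPKM in injury-activated libraries, 67.9 and 78.9 in PFA-perfused, 31.1 and 44.5 in PBS-perfused and 43.3 and 35.4 in unperfused libraries. The injury-activated libraries were the highest, the PFA-perfused libraries came next without overlap, and the last 2 groups overlapped. Snhg1, which hosts 8 annotated snoRNAs as Gas5 does, was at 12.6 and 12.4 FPKM in unperfused libraries, 6.41 and 6.04 in injury-activated, 3.66 and 6.36 in PBS-perfused and 4.04 and 5.24 in PFA-perfused libraries. The unperfused libraries stood above all others for Snhg1, and the PBS-perfused libraries overlapped both remaining groups. Snhg6, host of Snord87, was at 43.3 and 46.8 FPKM in PFA-perfused libraries, 25.1 and 45.7 in PBS-perfused, 27.4 and 24.7 in unperfused and 23.7 and 23.9 in injury-activated libraries. Its PBS-perfused libraries spread over nearly the whole range, so that no neighbours in that order were cleanly apart except unperfused and injury-activated cells, which differed by less than the fitted error.

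The H/ACA box hosts varied most. Snhg3, host of Snora73a and Snora73b, was at 42.4 and 41.7 FPKM in PFA-perfused libraries, 16.9 and 17.9 in injury-activated, 8.75 and 12.3 in PBS-perfused and 1.80 and 1.21 in unperfused libraries. No 2 groups overlapped, and the mean was 42.1 ± 0.477 in the highest and 1.51 ± 0.418 in the lowest group. Snhg8, host of Snora24, was at 15.9 and 19.4 FPKM in PFA-perfused libraries, 6.32 and 13.1 in PBS-perfused, 1.51 and 0.730 in unperfused and 1.64 and 1.81 in injury-activated libraries. The perfused groups lay above the others and the unperfused and injury-activated levels were close together. Snhg12, which hosts Snora16a, Snora44, Snora61 and Snord99, was low and showed the least separation. Its FPKM was 4.01 and 6.27 in PFA-perfused, 2.75 and 4.90 in PBS-perfused, 5.35 and 3.62 in unperfused and 2.28 and 1.95 in injury-activated libraries. The first 3 groups overlapped, and the injury-activated libraries were the lowest.

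**Figure D1:**
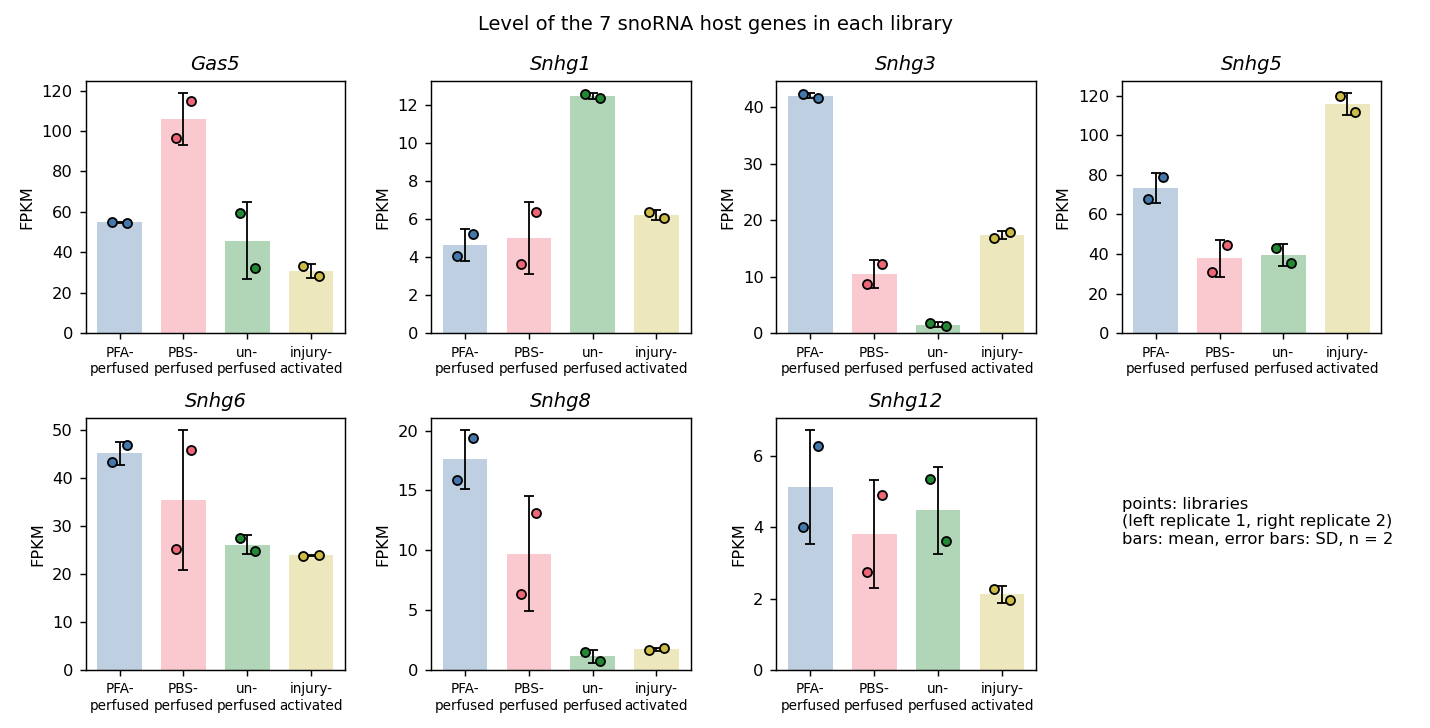
FPKM (vertical axes, linear, from 0) of the 7 snoRNA host genes in the 4 groups. Points are libraries, bars are means and error bars are SD (n = 2). Gas5 is highest in PBS-perfused cells (96.7 and 115), Snhg5 in injury-activated cells (119.8 and 112), Snhg1 in unperfused cells (12.6 and 12.4) and Snhg3 in PFA-perfused cells (42.4 and 41.7).

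The 2 libraries of a group could differ in the same direction over all of these genes. All 7 were higher in the second PBS-perfused library than in the first, with sums of 242 and 174 FPKM, and all 7 were lower in the second unperfused library than in the first, with sums of 110 and 151 FPKM. The shares of the 7 genes in their own sum do not depend on how a library is scaled. Gas5 made up 55.4 and 47.6% of that sum in PBS-perfused libraries, 39.2 and 29.3% in unperfused, 23.6 and 21.6% in PFA-perfused and 16.2 and 14.7% in injury-activated libraries. Snhg5 made up 58.8 and 58.3% in injury-activated libraries against 17.8 to 32.1% elsewhere. The ratio of Gas5 to Snhg5 was thus 3.11 and 2.58 in PBS-perfused, 1.37 and 0.913 in unperfused, 0.806 and 0.693 in PFA-perfused and 0.276 and 0.253 in injury-activated libraries, with no overlap between groups. Snhg3 was at 18.3 and 16.5% of the sum in PFA-perfused and 1.19 and 1.10% in unperfused libraries. Snhg1 took 8.34 and 11.2% in unperfused libraries and 1.74 to 3.15% in the others. These shares are descriptions and were not tested.

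**Figure D2:**
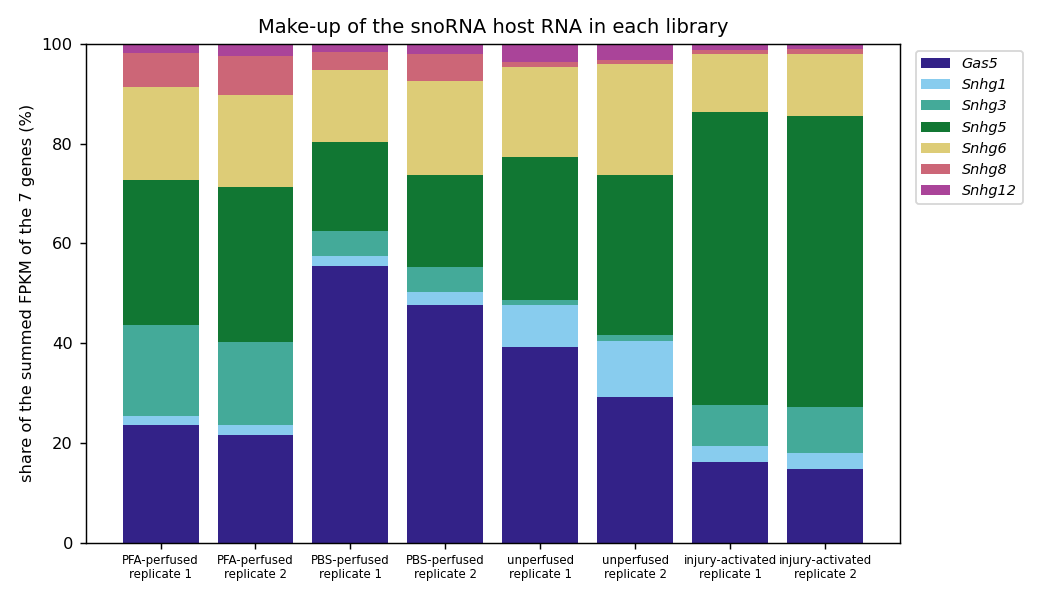
Share of each gene in the summed FPKM of the 7 genes (vertical axis, percent) for each library (bars). Gas5 takes 55.4 and 47.6% in the PBS-perfused libraries, and Snhg5 58.8 and 58.3% in the injury-activated libraries.

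Differences between groups were tested with limma on log2(FPKM + 1) in 1 fit over all 12515 genes and 8 libraries. Calls were two-sided, at an adjusted p (Benjamini-Hochberg, over all tested genes) below 0.05. Fold changes are on the log2(FPKM + 1) scale ± SE and understate changes of low genes such as Snhg12 and Snhg8. The main test used the values as deposited. Scaling each library by the trimmed mean of its log ratios to 1 reference library shifted the median over all tested genes by over 0.1 in each comparison. As deposited this median was -0.50 in PBS-perfused, -0.81 in unperfused and -0.48 in injury-activated cells, each against PFA-perfused, and 0.01, 0.08 and 0.14 after scaling. Against PBS-perfused cells it was -0.36 in unperfused and -0.11 in injury-activated cells, and 0.00 and 0.01 after scaling. Injury-activated against unperfused cells gave 0.17 and -0.06. Values after scaling are therefore given where a call or direction depended on it. Of 42 gene-by-comparison tests, 27 were called and 14 of these calls held under all 16 alternatives. Snhg3 was called in 6 of 6 comparisons, Snhg5 and Snhg8 in 5, Gas5 in 4, Snhg1 in 3, and Snhg6 and Snhg12 in 2. Comparisons that share a group are not independent of each other.

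Buffer-perfused cells differed from fixed cells by more Gas5 and less Snhg3, Snhg5 and Snhg8. Gas5 rose by 0.93 ± 0.29 (limma adjusted p = 0.019) and by 1.56 after trimmed mean scaling. Snhg3 fell by 1.92 ± 0.22 (adjusted p = 1.3e-04) and was called under all 16 alternatives. Snhg5 fell by 0.96 ± 0.24 (adjusted p = 0.0075), but its log2 fold change was -0.33 (adjusted p = 0.24) after trimmed mean scaling. Snhg8 fell by 0.87 ± 0.32 (adjusted p = 0.037), with -0.27 (adjusted p = 0.51) after that scaling, and its call was lost in 10 of 16 alternatives, among them those without either PFA-perfused, either injury-activated or the first PBS-perfused library (adjusted p = 0.051 to 0.24). Without the second PBS-perfused library it was at -1.34. Snhg1 (0.06 ± 0.25), Snhg6 (-0.40 ± 0.27) and Snhg12 (-0.36 ± 0.28) did not pass the test, and Snhg6 (0.22) and Snhg12 (0.15) were positive after scaling. Without the second PBS-perfused library Snhg6 was called lower (-0.82, adjusted p = 0.013). The count of 1 higher and 3 lower stood beside 17.8% of all tested genes called higher and 46.2% called lower. Higher calls made up 27.8% of all calls as deposited and 54.1% after scaling, when 1 of the 7 was higher and 1 lower. The Gas5 call was lost without either PFA-perfused library (adjusted p = 0.074 without replicate 1 and 0.073 without replicate 2) or without the second PBS-perfused library (adjusted p = 0.084). Without the second PFA-perfused library the Snhg5 call was also lost (adjusted p = 0.053), which left 1 call. The 6 endothelial markers summed to 186 and 112 FPKM in the PBS-perfused libraries, against 58.5 and 57.5 after PFA, and their part in these differences was not tested.

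Unperfused against fixed cells gave the largest changes of Snhg3, Snhg8 and Snhg1 among the 6 comparisons, but not of the other genes. Snhg3 fell by 4.11 ± 0.22 (limma adjusted p = 1.1e-06) and Snhg8 by 3.15 ± 0.32 (adjusted p = 2.2e-05), the H/ACA box hosts, and Snhg1 rose by 1.27 ± 0.25 (adjusted p = 0.0012). These 3 calls held under all 16 alternatives, and Snhg1 rose by 2.29 after trimmed mean scaling. Snhg5 fell by 0.89 ± 0.24 (adjusted p = 0.0085) and Snhg6 by 0.77 ± 0.27 (adjusted p = 0.030) as deposited, but they were at 0.30 (adjusted p = 0.27) and 0.40 (adjusted p = 0.22) after scaling, so their direction depended on it. Gas5 (-0.32 ± 0.29, adjusted p = 0.35) and Snhg12 (-0.16 ± 0.28, adjusted p = 0.64) did not pass as deposited, and were called higher after scaling (0.86, adjusted p = 0.0078, and 0.82, adjusted p = 0.027). Over all genes 17.4% were called higher and 56.3% lower, beside 1 higher and 4 lower of the 7. Higher calls were 23.6% of all calls as deposited and 54.4% after scaling, when 3 of the 7 were higher and 2 lower. The Gas5 value turned on the unperfused libraries, at -0.74 (adjusted p = 0.018) without the first and 0.11 (adjusted p = 0.66) without the second. The Snhg5 call was lost without the second PFA-perfused library (adjusted p = 0.059), which left 3 calls, and the Snhg6 call without any 1 of the PFA-perfused, unperfused or injury-activated libraries (adjusted p = 0.051 to 0.11).

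Unperfused cells were also compared with buffer-perfused cells, neither of them fixed. Gas5 fell by 1.25 ± 0.29 (limma adjusted p = 0.0064), Snhg3 by 2.19 ± 0.22 (adjusted p = 6.7e-05) and Snhg8 by 2.28 ± 0.32 (adjusted p = 3.8e-04), while Snhg1 rose by 1.20 ± 0.25 (adjusted p = 0.0033). All 4 calls held under the 16 alternatives, with Gas5 at -0.69 after trimmed mean scaling and -0.82 without the second unperfused library. Snhg5 (0.07 ± 0.24), Snhg6 (-0.37 ± 0.27) and Snhg12 (0.20 ± 0.28) did not pass, although Snhg5 was called higher after scaling (0.62, adjusted p = 0.046) and Snhg6 turned to 0.18. Over all genes 13.1% were called higher and 36.5% lower, and after scaling the higher share of calls moved from 26.5 to 52.4%, with 2 of the 7 higher and 3 lower. The Snhg6 value became -0.79 (adjusted p = 0.020) without the first PBS-perfused library and 0.05 without the second.

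Injury-activated cells were set against unperfused cells of the same wild-type label. Snhg3 rose by 2.89 ± 0.22 (limma adjusted p = 5.4e-06) and Snhg5 by 1.54 ± 0.24 (adjusted p = 3.7e-04), and both calls held under all 16 alternatives. Snhg1 fell by 0.90 ± 0.25 (adjusted p = 0.0089) and Snhg12 by 0.80 ± 0.28 (adjusted p = 0.031). Gas5, named for growth arrest, was at -0.50 ± 0.29 (adjusted p = 0.15) as deposited and was called lower after trimmed mean scaling (-0.91, adjusted p = 0.0054) or without the second unperfused library (-0.93, adjusted p = 0.0081). Snhg6 (-0.12 ± 0.27) and Snhg8 (0.39 ± 0.32) did not pass. The background was 40.8% called higher and 29.3% called lower, beside 2 higher and 2 lower of the 7. After scaling 2 of the 7 were higher and 3 lower, where 4528 of 12420 tested genes were higher and 4664 lower. The Snhg1 call was lost without the second injury-activated library (adjusted p = 0.057), and the Snhg12 call without either injury-activated library or the first unperfused library (adjusted p = 0.074 to 0.18). Of 5 activated-myoblast markers, Myod1 was at 42.8 and 40.7 FPKM in injury-activated and 377 and 259 in unperfused libraries. Ccnb1, a mitotic cyclin, was at 245 and 254 against 1.61 and 0.697, and Top2a, Mki67 and Myog were also higher in both injury-activated libraries. Summed FPKM of 6 haematopoietic markers was 51.6 and 56.0 against 4.97 and 2.92, and their part in these differences was not tested.

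Against fixed cells, 5 of the 7 genes were called lower after injury, and against buffer-perfused cells 2 were. The fold changes against PFA-perfused cells were -2.77 ± 0.32 for Snhg8 (limma adjusted p = 4.6e-05), -1.23 ± 0.22 for Snhg3 (adjusted p = 8.2e-04), -0.96 ± 0.28 for Snhg12 (adjusted p = 0.013), -0.89 ± 0.27 for Snhg6 (adjusted p = 0.015) and -0.82 ± 0.29 for Gas5 (adjusted p = 0.028). Snhg5 rose by 0.65 ± 0.24 (adjusted p = 0.035), and Snhg1 (0.36 ± 0.25) did not pass. Over all genes 26.1% were called higher and 47.3% lower. Without the second library of either group 2 of these 6 calls were left, and 3 without the first injury-activated library. After trimmed mean scaling only Snhg8 (-2.06), Snhg5 (1.44) and Snhg1 (1.00) were called of the 7, while Gas5 was at -0.04, Snhg6 at -0.12, Snhg12 at -0.34 and Snhg3 at -0.46, and the higher share of all calls moved from 35.6 to 55.6%. The Snhg8 call held under all 16 alternatives, while the calls of Gas5 and Snhg5 were lost without any 1 of the 4 libraries compared (adjusted p = 0.066 to 0.17). Those of Snhg6 were lost without either injury-activated or the second PFA-perfused library (adjusted p = 0.069 to 0.073), and that of Snhg12 without the second library of either group (adjusted p = 0.070 and 0.096). Against PBS-perfused cells, Gas5 fell by 1.75 ± 0.29 (adjusted p = 4.9e-04) and Snhg8 by 1.90 ± 0.32 (adjusted p = 5.2e-04), while Snhg5 rose by 1.61 ± 0.24 (adjusted p = 2.8e-04) and Snhg3 by 0.69 ± 0.22 (adjusted p = 0.019). The background there was 34.4% called higher and 38.8% lower, beside 2 higher and 2 lower of the 7, and the Snhg3 call was lost without either injury-activated or the first PBS-perfused library (adjusted p = 0.079 to 0.11). Snhg1 (0.30 ± 0.25), Snhg6 (-0.49 ± 0.27) and Snhg12 (-0.60 ± 0.28) did not pass. Without the first PBS-perfused library Snhg6 (-0.91) and Snhg12 (-0.92) were called, and without the second Snhg1 was (0.63).

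**Figure D3:**
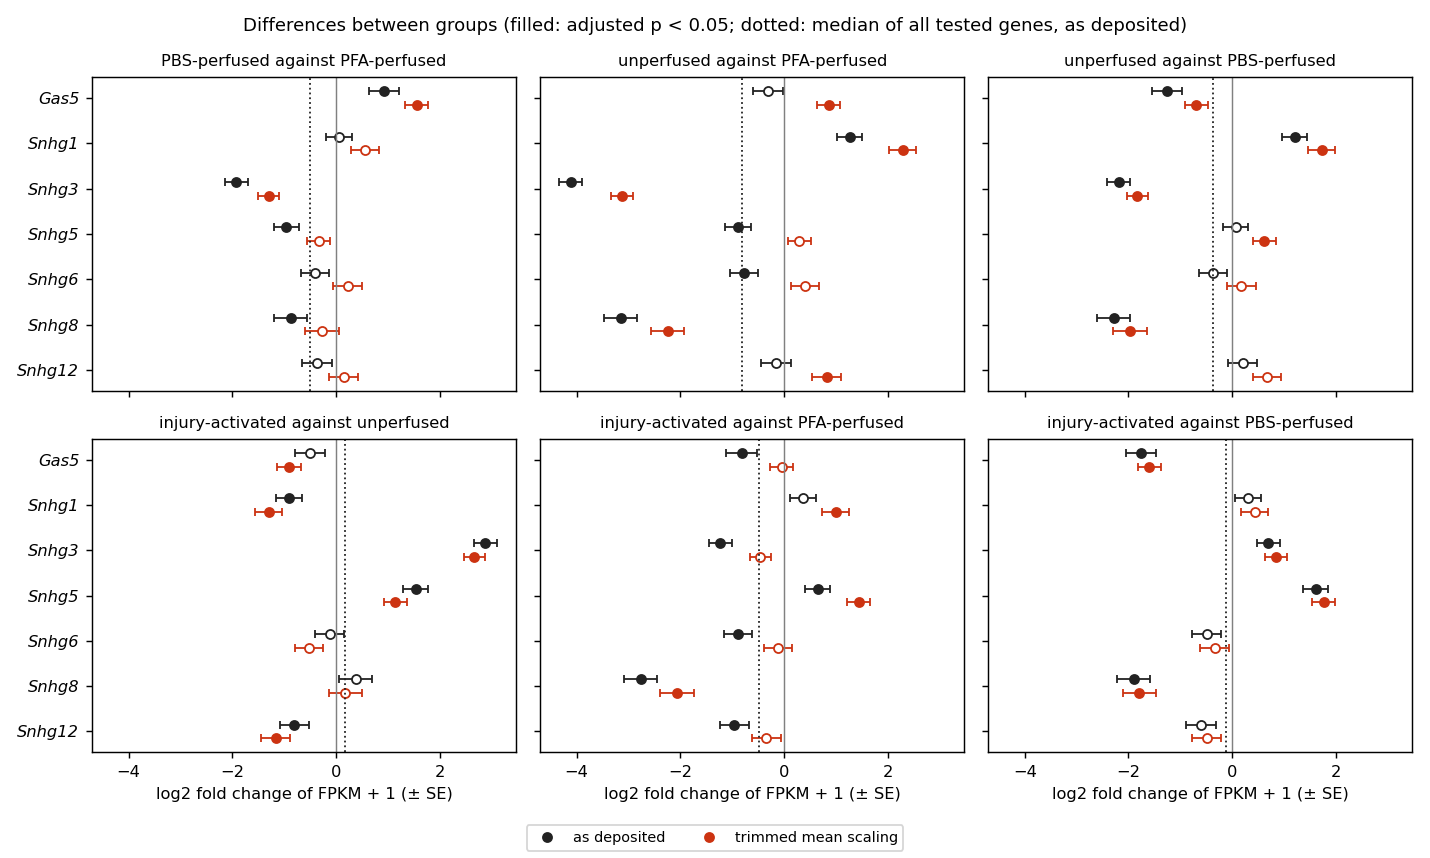
Log2 fold change of FPKM + 1 (horizontal axes, ± SE) of the 7 genes in 6 comparisons, as deposited (black) and after trimmed mean scaling (red). Filled points passed an adjusted p of 0.05, and the dotted line is the median of all tested genes as deposited. Snhg3 lies furthest from 0, at -4.11 for unperfused against PFA-perfused cells, while the values of Snhg5 and Snhg6 there are negative as deposited and positive after scaling.

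The snoRNAs carried in the introns have few entries of their own. RefSeq places 8 snoRNA genes within Gas5, 8 within Snhg1, 2 within Snhg3, 2 within Snhg5, 1 within Snhg6, 1 within Snhg8 and 4 within Snhg12. Of the 8 that the table lists by symbol, Snord47 (in Gas5), Snord22 (in Snhg1) and Snord87 (in Snhg6) were the most abundant. Their sequences (GENCODE M21, GRCm38) are shown because their values set the intron against the spliced host. The capitals mark the C box TGATGA and the D box CTGA, searched in the first 25 and last 20 bases.
Snord47, 77 bases: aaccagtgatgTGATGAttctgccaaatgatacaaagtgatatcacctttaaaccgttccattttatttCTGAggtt
Snord87, 87 bases: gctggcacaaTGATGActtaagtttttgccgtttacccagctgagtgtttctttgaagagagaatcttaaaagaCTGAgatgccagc
Snord22, 126 bases: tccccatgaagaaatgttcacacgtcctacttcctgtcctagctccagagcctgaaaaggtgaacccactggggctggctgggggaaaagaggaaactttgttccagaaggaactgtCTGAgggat
Both boxes in these exact letters were found in Snord47 and Snord87 and in 20.6% of 1507 annotated snoRNA transcripts, and Snord22 had the D box letters alone. Mature snoRNAs carry no poly(A) tail and the libraries were made from polyA RNA, so these entries count reads over the intervals and were not taken as levels of mature snoRNA.

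Snord47 and Gas5 were highest in the same group. The FPKM of Snord47 was 43.4 and 44.3 in PBS-perfused, 17.9 and 14.5 in unperfused, 9.14 and 10.97 in PFA-perfused and 3.91 and 1.91 in injury-activated libraries. The groups did not overlap. Snord47 rose by 2.03 ± 0.27 from PFA-perfused to PBS-perfused cells (limma adjusted p = 2.3e-04), against 0.93 for Gas5. It fell by 2.18 ± 0.27 from unperfused to injury-activated cells (adjusted p = 7.7e-05), a comparison in which Gas5 was not called as deposited. After trimmed mean scaling both were called lower there, Snord47 at -2.60 and Gas5 at -0.91 (limma adjusted p = 2.2e-05 and 0.0054).

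Snord22 was at 33.1 and 39.1 FPKM in unperfused, 12.3 and 13.8 in PBS-perfused, 8.55 and 9.92 in PFA-perfused and 3.54 and 3.08 in injury-activated libraries. Like Snhg1 it was highest in unperfused cells, but it was lowest after injury, where Snhg1 was not. It rose by 1.86 ± 0.20 from PFA-perfused to unperfused cells (limma adjusted p = 3.2e-05) and fell by 3.10 ± 0.20 from unperfused to injury-activated cells (adjusted p = 2.1e-06). From PFA-perfused to injury-activated cells it fell by 1.25 ± 0.20 (adjusted p = 3.7e-04; -0.56, adjusted p = 0.051, after trimmed mean scaling), while Snhg1 stood at 0.36.

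As deposited, Snord87 and its host were highest in different groups. Its FPKM was 32.2 and 33.9 in unperfused, 11.1 and 11.8 in PBS-perfused, 2.47 and 0.901 in PFA-perfused and 2.18 and 1.49 in injury-activated libraries. Unperfused cells were the highest and PFA-perfused cells were among the lowest, while Snhg6 was highest in PFA-perfused cells as deposited. Snord87 rose by 3.73 ± 0.28 from PFA-perfused to unperfused cells (limma adjusted p = 5.2e-06) and by 2.28 ± 0.28 from PFA-perfused to PBS-perfused cells (adjusted p = 1.8e-04). Snhg6 was at -0.77 and -0.40 in these comparisons as deposited, but at 0.40 and 0.22 after trimmed mean scaling, when Snord87 was at 4.62 and 2.62, so the opposed signs of host and entry were lost. The difference between host and snoRNA entry was not tested. The Snora44 and Snora61 entries in Snhg12 fell from PFA-perfused to unperfused cells by 1.45 ± 0.33 (adjusted p = 0.0033) and 1.20 ± 0.26 (adjusted p = 0.0024), and after trimmed mean scaling they were at -0.84 and -0.50 and not called. Across the 8 libraries, Pearson's r of host and entry on the log scale was 0.88 for Snord47, 0.63 for Snord22 and -0.29 for Snord87, given as a description of libraries that share their scaling.

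**Figure D4:**
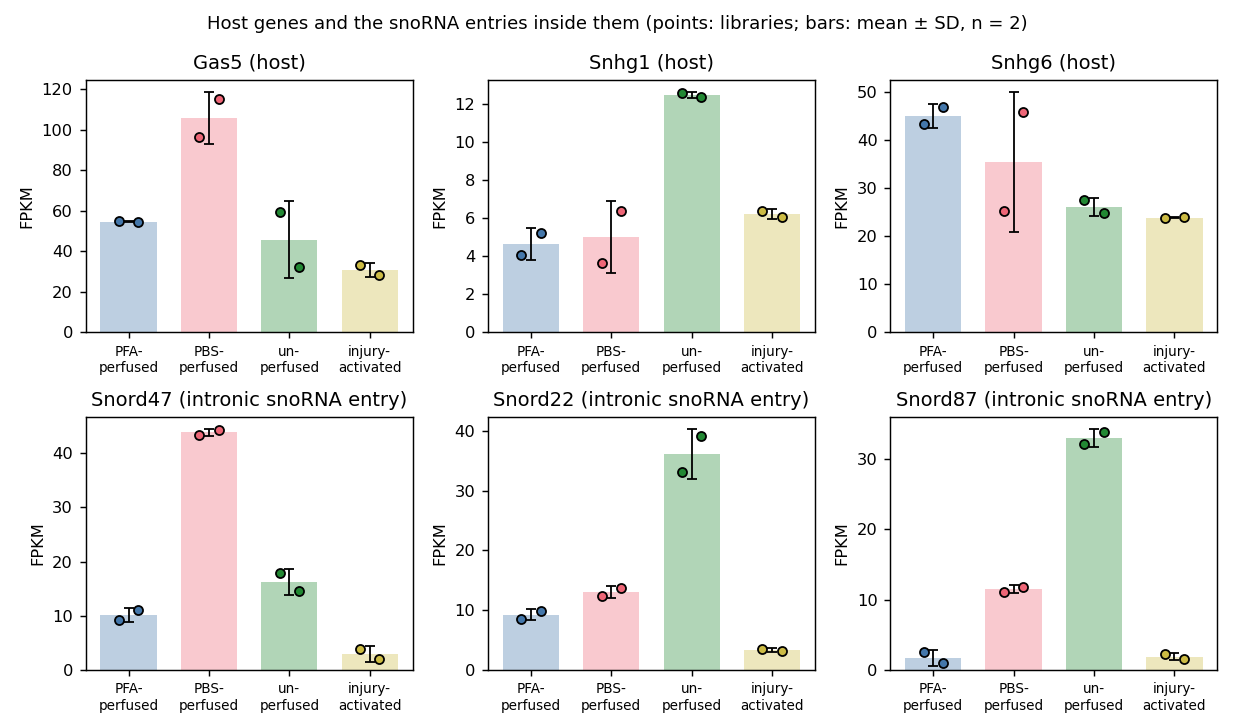
FPKM (vertical axes, linear, from 0) of 3 host genes (top) and of the snoRNA entry within each (bottom) in the 4 groups. Points are libraries, bars are means and error bars are SD (n = 2). Snord87 is highest in unperfused cells (32.2 and 33.9), where Snhg6 is at 27.4 and 24.7.

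As deposited, genes next to the hosts were mostly highest in other groups than the host. Exceptions by group mean were Trnau1ap and Rab42 beside Snhg12, Ndst3 beside Snhg8, Syncrip beside Snhg5 and Wdr74 beside Snhg1. Tcf24 beside Snhg6 was another, but was barely detected. By annotation Gas5 overlaps Zbtb37 on the opposite strand. Zbtb37 stayed under 0.75 FPKM in all libraries and was not tested. Snhg6 overlaps Mcmdc2 on the opposite strand, which was at 1.85 and 2.14 FPKM in unperfused libraries and at most 0.110 in the others, and rose by 1.49 from PFA-perfused to unperfused cells (limma adjusted p = 8.0e-06). Mcmdc2 and Snord87 were thus both highest in unperfused cells. Whether the counting used strand is not given in the sources used here, so reads of overlapping genes on opposite strands cannot be told apart.

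Snhg1 lies beside Slc3a2, an amino acid transporter chain transcribed in the opposite direction. Slc3a2 was at 223 and 230 FPKM in PBS-perfused libraries, 46.5 and 66.7 in PFA-perfused, 55.7 and 45.4 in unperfused and 18.1 and 17.2 in injury-activated libraries. It peaked in PBS-perfused cells (2.00 against PFA-perfused, limma adjusted p = 1.4e-04), where Snhg1 was not called. Snhg3 lies beside Rcc1, a chromatin-bound exchange factor for Ran, on the same strand. Rcc1 was listed here as a snoRNA host, but snoRNAs within it were not looked up. Rcc1 was at 82.6 and 82.6 FPKM in injury-activated, 26.7 and 25.4 in unperfused, 15.5 and 14.4 in PFA-perfused and 8.74 and 12.2 in PBS-perfused libraries. From PFA-perfused to unperfused cells Rcc1 rose by 0.76 (adjusted p = 0.0091), the comparison in which Snhg3 fell most. Trnau1ap, a selenocysteine tRNA factor beside Snhg12 on the opposite strand, was at 18.6 and 15.5 FPKM in PFA-perfused, 8.47 and 7.61 in PBS-perfused, 2.57 and 3.30 in unperfused and 4.96 and 5.18 in injury-activated libraries. Trnau1ap fell by 2.19 from PFA-perfused to unperfused cells (adjusted p = 1.3e-05), where Snhg12 was not called as deposited. After trimmed mean scaling Snhg12 was called higher in that comparison (0.82, limma adjusted p = 0.027). As deposited, both had their highest mean in PFA-perfused cells.

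**Figure D5:**
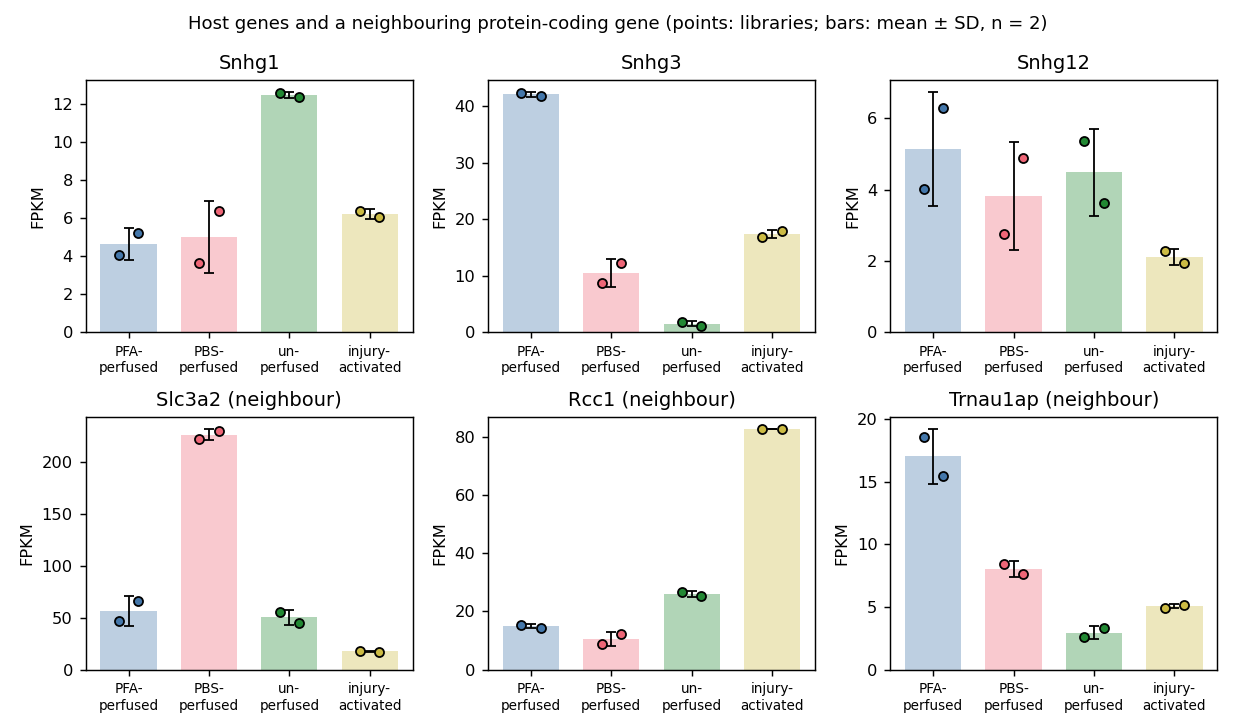
FPKM (vertical axes, linear, from 0) of 3 host genes (top) and an adjacent protein-coding gene of each (bottom). Points are libraries, bars are means and error bars are SD (n = 2). Slc3a2 peaks in PBS-perfused cells (223 and 230) and Snhg1 in unperfused cells (12.6 and 12.4).

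The 7 genes did not share a single pattern. Over the 8 libraries Pearson's r on the log scale was 0.90 for Snhg6 and Snhg8, 0.74 for Snhg6 and Snhg12 and 0.73 for Snhg3 and Snhg8, but -0.81 for Snhg1 and Snhg3 and -0.60 for Gas5 and Snhg5. Libraries of a group share their preparation, so these values are descriptions. The tested genes most like each host over the 8 libraries were Agfg1 (r = 0.989) and Id3 (0.980), a BMP-responsive inhibitor of differentiation factors, for Gas5. For Snhg1 they were Foxp1 and Slc39a1 (0.966 and 0.962), and for Snhg3 Ndufb3 and Dmap1 (both 0.997). For Snhg5 they were Mlst8, a subunit of mTOR complexes, and Oxsm (0.995 and 0.993), for Snhg6 Gm3230 (0.990), for Snhg8 Gtpbp1 and Hgh1 (both 0.994) and for Snhg12 Klhl29 (0.964). The best of 12515 genes over 8 points is high by selection.

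As deposited, most other noncoding genes listed as snoRNA hosts were lower in the unfixed groups than in fixed cells. Of 17 listed, 12 were tested. The listed genes, Meg3 among them, were not checked for snoRNAs within them, so some may not be hosts. From PFA-perfused cells, 0 were higher and 7 lower in PBS-perfused, 9 lower in unperfused and 12 lower in injury-activated cells. Of all tested genes 46.2, 56.3 and 47.3% were lower in these comparisons, so the first count was near the background. Their median log2 fold changes were -0.73, -1.31 and -1.59, against -0.50, -0.81 and -0.48 over all tested genes. After trimmed mean scaling the counts were 1 higher and 3 lower, 2 higher and 5 lower, and 0 higher and 7 lower. Of 12420 genes tested then, 3623, 4596 and 5000 were higher and 3072, 3846 and 3992 lower. The first count was thus again near the background. Snhg20 was at 106.9 ± 1.77 FPKM in PFA-perfused, 17.3 ± 2.08 in PBS-perfused, 1.67 ± 0.430 in unperfused and 1.28 ± 0.0582 in injury-activated cells, and fell by 5.34 ± 0.20 from PFA-perfused to unperfused cells (limma adjusted p = 5.5e-07). Its order over PFA-perfused, PBS-perfused and unperfused cells was that of Snhg3, and it was low after injury, where Snhg3 was at 16.9 and 17.9. Meg3, an imprinted noncoding gene, fell from 54.2 ± 3.65 FPKM in unperfused to 0.0490 ± 0.0113 in injury-activated cells (-5.72 ± 0.37, adjusted p = 2.2e-06). Snhg17, at 74.7 and 54.1 FPKM in unperfused and 22.3 and 19.6 in injury-activated libraries, fell as well (-1.56 ± 0.23, adjusted p = 2.5e-04).

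More genes listed as protein-coding hosts were higher than lower after injury. These genes were likewise not checked for snoRNAs within them. Of 42 tested, 28 were higher and 3 lower in injury-activated than in unperfused cells, with a median of 1.34 against 0.17 over all genes, of which 40.8% were higher and 29.3% lower. Among them Rps20 rose by 3.10 ± 0.45 (limma adjusted p = 2.4e-04) and Rpsa by 2.86 ± 0.35 (adjusted p = 7.7e-05), both ribosomal proteins. From PFA-perfused to unperfused cells 13 were higher and 19 lower, beside 17.4 and 56.3% of all genes. Eif4g2 was at 3.18 ± 0.35 and Rpl13a at -2.96 ± 0.48 there. After trimmed mean scaling 21 were higher and 5 lower, where 4596 of 12420 tested genes were higher and 3846 lower. Ribosomal protein genes, whose mRNAs are the best known carriers of the oligopyrimidine start, moved largely together. Of 80 tested, 77 were higher and 1 lower in injury-activated than in unperfused cells (median 2.25), and 1 was higher and 74 lower in unperfused than in PFA-perfused cells (median -2.14; 3 higher and 43 lower after scaling). Rps27 fell by 6.09 ± 0.34 in the latter comparison. As deposited Snhg3 and Snhg5 had the same signs in both (Snhg5 at 0.30 in the latter after scaling), and Snhg1 had the opposite signs.

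Most H/ACA box core proteins and assembly factors were called higher after injury than in unperfused cells, and the C/D box protein fibrillarin (Fbl) lower. Of 4 C/D box core proteins, all 4 were higher in PBS-perfused than in PFA-perfused cells, where 17.8% of all genes were higher, with Nop58 up by 2.44 ± 0.24 (limma adjusted p = 6.0e-05) and Nop56 by 1.75 ± 0.37 (adjusted p = 0.0028). Fibrillarin, the methyltransferase of these particles, fell from 62.3 ± 1.14 FPKM in unperfused to 12.4 ± 0.155 in injury-activated cells (-2.24 ± 0.20, adjusted p = 1.2e-05), while Nhp2l1 rose and Nop58 was not called. Nop56 was at 0.95 (limma adjusted p = 0.043) as deposited and 0.54 (adjusted p = 0.11) after trimmed mean scaling. Of 4 H/ACA box core proteins, 3 were higher and 0 lower after injury against unperfused cells, among them Nop10 (2.51 ± 0.33) and the pseudouridine synthase Dkc1 (2.13 ± 0.28). Of 12 assembly factors, 9 were higher and 2 lower in that comparison, led by Znhit3 (2.66 ± 0.28), Znhit6 (2.63 ± 0.24) and Rpap3 (2.51 ± 0.23). Of all tested genes 40.8% were higher and 29.3% lower there, and the medians of the 3 lists were 0.70, 2.00 and 1.70 against 0.17. From PFA-perfused to unperfused cells 1 assembly factor was higher and 7 lower, beside 17.4 and 56.3% of all genes, with Pih1d1 at -2.91 ± 0.26. After scaling 5 were higher and 2 lower, where 4596 of 12420 tested genes were higher and 3846 lower.

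Among factors known to act on host RNAs, called genes went in both directions. Of 17 nonsense-mediated decay factors, 4 were higher and 9 lower in unperfused than in PFA-perfused cells, and 9 higher and 2 lower after trimmed mean scaling. As deposited this was near the background of 17.4% higher and 56.3% lower, with a median of -0.63 against -0.81 over all genes. After scaling the median was 0.56 against 0.08, and 4596 of 12420 tested genes were higher and 3846 lower. Upf1, the central helicase, rose from 18.6 ± 2.19 to 88.7 ± 9.54 FPKM (2.20 ± 0.43, limma adjusted p = 0.0013), while Upf3b fell by 2.19 ± 0.21. Upf1 then fell by 2.45 ± 0.43 and Smg1, its kinase, by 2.28 ± 0.20 from unperfused to injury-activated cells. Of 18 mTOR and oligopyrimidine regulators, 7 were higher and 9 lower in unperfused than in PFA-perfused cells, beside the same 17.4 and 56.3%. Their median was -0.67. After scaling 9 were higher and 3 lower, beside the same 4596 and 3846 of 12420 genes. Larp1, which binds oligopyrimidine starts, rose by 2.28 ± 0.21 (adjusted p = 1.3e-05) and Larp4 by 4.43 ± 0.19, while the mTOR inhibitor Akt1s1 fell by 3.79 ± 0.22. From unperfused to injury-activated cells 5 were higher and 6 lower, beside 40.8 and 29.3% of all genes, with the mTOR-binding Deptor at -3.49 ± 0.26.

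The genes named with Gas5 for growth arrest and those tied to it through the glucocorticoid receptor did not all follow Gas5. Of 7 growth arrest specific genes, 0 were higher and 6 lower in unperfused than in PFA-perfused cells, where 56.3% of all genes were lower. After trimmed mean scaling 4 were lower, beside 3846 of 12420 tested genes. In injury-activated against unperfused cells 3 were higher and 2 lower, beside 40.8 and 29.3% of all genes. Gas1 fell from 462 ± 187 FPKM in PFA-perfused to 6.30 ± 0.533 in injury-activated cells (-5.93 ± 0.53, limma adjusted p = 9.6e-06), and Gas6 by 4.76 ± 0.25. None of the 7 was called higher in PBS-perfused than in PFA-perfused cells, the comparison in which Gas5 was. Of 13 glucocorticoid receptor and target genes, 7 were higher and 2 lower in PBS-perfused than in PFA-perfused cells, and 0 higher and 9 lower in unperfused than in PBS-perfused cells (9 and 0, and 2 and 7, after scaling). Over all genes as deposited 17.8% were higher and 46.2% lower in the former and 13.1% higher and 36.5% lower in the latter comparison. After scaling 3623 of 12420 genes were higher and 3072 lower in the former, and 3139 higher and 2854 lower in the latter. Errfi1 rose by 3.76 ± 0.47 (adjusted p = 1.7e-04), Dusp1 by 3.57 ± 0.42 and Cebpd by 3.06 ± 0.26 in the former, and these also respond to stimuli other than glucocorticoids. The medians of the list were 1.54 and -1.83 in these comparisons, which share the PBS-perfused libraries, beside 0.93 and -1.25 for Gas5.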

How the data were processed

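RNA of 8 satellite cell libraries was measured by sequencing. The authors deposited 1 table of decimal values without a named unit or a stated scaling between libraries. As deposited by the authors they are read here as FPKM, a unit that StringTie writes, because their totals of 461454 to 582336 differ between libraries. Per the submitters' processing notes, STAR 2.5.3a, StringTie 1.3.3 and R 3.4.1 were used with mm9, without roles. Coordinates printed are RefSeq GRCm38.p6 and were matched by symbol only. Depth is unknown. The values were analysed as log2(FPKM + 1) with limma 3.58.1 under R 4.3.3, with a variance trend, no covariate and all 8 libraries, for genes that reached 1 FPKM in at least 2 of them. The test was checked on simulated data. The alternatives were a replicate block, only the 2 groups compared, no filter, a filter of 5 FPKM, a pseudocount of 0.1, trimmed mean scaling (trims 0.3 and 0.05), quantile normalization, removal of Rn45s and Malat1, and each library left out. The design text names 2 sequencers and the labels 1, so this could not be tested. All 7 genes are named; from each list, up to 4 called genes per comparison by size of change with at least 10 FPKM in the higher group could be named, and part of these is printed. Neighbours and like genes followed position and the highest Pearson r; the nested snoRNA entries follow the annotation. The members and lists were chosen with earlier results of these data known.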

Additional observations from a re-analysis of the deposited data

How the results depend on the processing

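Of the 27 calls, 14 held under all 16 alternatives. Over the called values, 376 alternatives kept the call, 54 lost it and 2 reversed the direction, and over values not called 207 stayed so, 12 became called in the same direction and 21 reversed. After trimmed mean scaling, 2 instead of 4 of the 7 genes were called for PBS-perfused and 3 instead of 6 for injury-activated against PFA-perfused cells. With each library left out, the lowest and highest counts were 1 and 4 for PBS-perfused against PFA-perfused, 3 and 5 for unperfused against PFA-perfused, 2 and 5 for injury-activated against unperfused and 2 and 6 for injury-activated against PFA-perfused cells. The lone library left in a group was given the spread of the others. The cause was not tested.

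Directions reversed as follows. After trimmed mean scaling, the values were 0.22 (Snhg6) and 0.15 (Snhg12) for PBS-perfused against PFA-perfused, 0.86 (Gas5), 0.30 (Snhg5), 0.40 (Snhg6) and 0.82 (Snhg12) for unperfused against PFA-perfused and 0.18 (Snhg6) for unperfused against PBS-perfused cells. After quantile normalization Snhg12 was at 0.22 and 0.88 in the first 2 comparisons. Without Rn45s and Malat1, Snhg1 was at -0.10 for PBS-perfused against PFA-perfused and Snhg5 at -0.075 for unperfused against PBS-perfused cells. With a library left out, values that could change sign lay between -0.27 and 0.39 (Snhg1) and -0.82 and 0.022 (Snhg6) for PBS-perfused against PFA-perfused, between -0.74 and 0.11 (Gas5) and -0.43 and 0.11 (Snhg12) for unperfused against PFA-perfused, between -0.18 and 0.32 (Snhg5), -0.79 and 0.050 (Snhg6) and -0.12 and 0.53 (Snhg12) for unperfused against PBS-perfused, and between -0.027 and 0.63 (Snhg1) for injury-activated against PBS-perfused cells.

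Same-numbered deviations correlated between groups at -0.0467 to 0.117, which cannot show whether the replicate numbers pair the samples. With the replicate block, 4, 5, 4, 4, 6 and 4 of the 7 genes were called, as without it, and 8145, 9336, 6418, 8847, 9336 and 9299 genes in all, for PBS-perfused and unperfused against PFA-perfused, unperfused against PBS-perfused, and injury-activated against unperfused, PFA-perfused and PBS-perfused cells. Without the block the totals were 8008, 9216, 6205, 8763, 9197 and 9163, in the same order.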
